A study of Rattus norvegicus with 6 samples.

Results

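The genes described here are 10 genes of renal vitamin D, calcium and klotho biology, Gc, Cyp24a1, Cyp27b1, Vdr, Kl, Rgn, Calb1, S100g, Trpv5 and Atp2b1, measured in the renal cortex of rats. They were chosen by gene symbol, and their probes were found by matching each probe's transcript accession to those symbols. All 10 were found among the 15284 gene symbols on the array, with 17 probes between them, and all 17 probes were well above background on every array. The study compared male Sprague-Dawley (Crl:CD(SD)) rats, 5 weeks old at purchase, given corn oil, the vehicle, with rats of the same strain, sex and source given anthraquinone, a tricyclic quinone, at 1000 mg/kg/day, both for 4 weeks. Each group held 3 animals, which the series' design text calls biological replicates, and each animal had its own 1-colour Agilent array. The strain is outbred, and whole renal cortex is a mixture of cell types, so in every result below fewer cells of a type and less RNA per cell cannot be told apart.

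Vitamin D from skin and food circulates bound to a carrier protein, and the proximal tubule of the kidney takes up the filtered carrier with its cargo by endocytosis and activates the vitamin there. The active hormone works through a nuclear receptor, and in the distal tubule it favours the synthesis of proteins that move calcium from urine to blood, namely an apical channel, cytosolic buffers and a basolateral pump. Parathyroid hormone raises the activating enzyme. The bone hormone FGF23, acting through klotho and an FGF receptor, lowers it and raises the degrading enzyme.

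Values are given as the log2 processed intensity of a gene's brightest probe minus the 75th percentile of that array, so 0 is the level of that percentile. Levels of different genes on this scale are not comparable with each other, because each probe binds with its own strength. The 75th percentile lay between 903.1 and 1191 intensity units in corn oil and between 844.2 and 879.7 with anthraquinone, and of all probes 68.7 to 70.7% were well above background in corn oil and 64.2 to 66.1% with anthraquinone. The array of corn oil replicate 1 was in row 2 of a slide of its own, and a second slide held the other 5 arrays. On that second slide the corn oil arrays were in row 1 and the anthraquinone arrays in row 2. Row and treatment therefore cannot be told apart there. As a check of the tissue, all 12 proximal tubule markers were well above background on all arrays, as were the distal convoluted tubule marker Slc12a3, the thiazide-sensitive sodium chloride cotransporter gene, and all 8 connecting tubule and principal cell markers.

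The 10 genes split into 3 sets. Cyp24a1 and S100g were higher in all 3 anthraquinone animals than in any corn oil animal, Gc, Rgn, Calb1 and Trpv5 were lower in all 3, and Cyp27b1, Vdr, Kl and Atp2b1 overlapped between the groups. None of the 10 passed the test at a limma adjusted p of 0.05 over the 32663 gene entries tested, of which 0.0276% passed, 0.0153% higher and 0.0122% lower with anthraquinone. At an unadjusted limma p under 0.05, 6 of the 10 differed, 2 higher and 4 lower, where 17.1% of all entries did, 9.47% higher and 7.65% lower. With single arrays left out that count was 5 to 7, and 4051 to 6005 of the 32663 entries were under 0.05. Cyp27b1 came under 0.05 without anthraquinone replicate 1. Trpv5 was above 0.05 when anthraquinone replicate 2 or 3 or corn oil replicate 2 was left out, at values between 0.0529 and 0.0613, and also with the normexp correction (0.0591) and the replicate block (0.0508). Groups that did not overlap were found for 6 of the 10 genes and for 25.2% of all entries, 15% higher and 10.2% lower. The 10 genes had been chosen with results of these arrays known, so these counts describe them and lend no support to a change of the set as a whole.

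**Figure D1:**
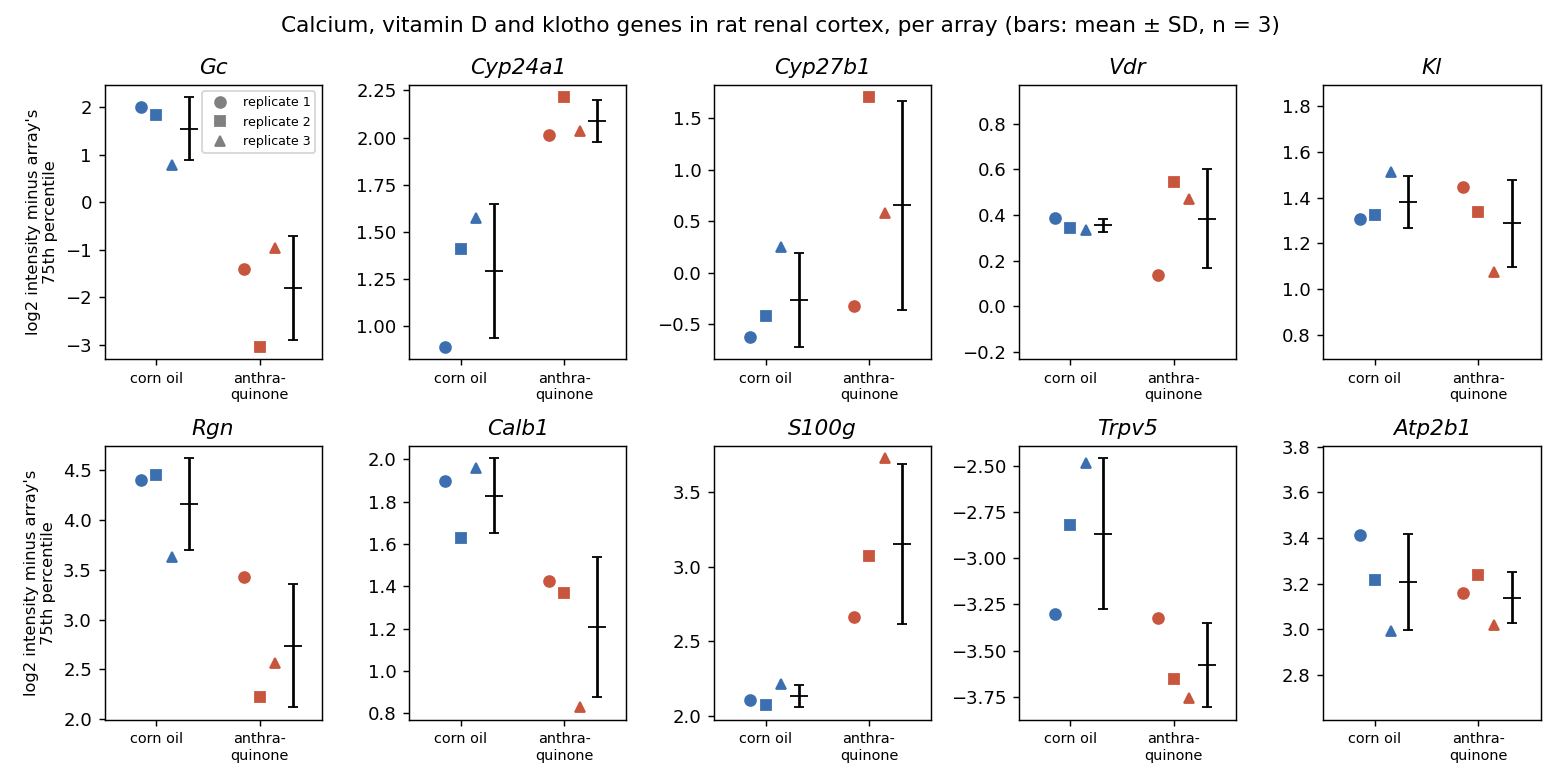
Log2 intensity minus the array's 75th percentile (vertical axis, its own range for each gene) for each of the 10 genes in the 3 corn oil arrays (blue) and the 3 anthraquinone arrays (red). Symbols mark replicates 1 to 3 and black bars the mean ± SD of 3 arrays. For Gc the corn oil arrays lie between 0.79 and 2.01 and the anthraquinone arrays between -3.04 and -0.96, while for Atp2b1 the groups overlap.

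The largest difference was that of Gc, which encodes the vitamin D-binding protein, the plasma carrier of vitamin D. Its level in replicates 1, 2 and 3 of corn oil was 2.01, 1.84 and 0.79, and the anthraquinone replicates, in the same order, were at -1.40, -3.04 and -0.96. Values of every gene below follow this order. The groups did not overlap, and the anthraquinone animals were spread more widely than the corn oil animals. The means were 1.55 ± 0.66 and -1.80 ± 1.09 (SD, n = 3 per group), a difference of -3.35 ± 0.60 (SE) on the log2 scale, or 10.2-fold lower, with a 95% interval from -4.80 to -1.90 and a limma adjusted p of 0.157. Among all 32663 entries this was rank 13 counted from the most negative difference. Without anthraquinone replicate 2, the animal with the lowest Gc level, the difference was -2.73. With no filter on dim probes, which raises the number of entries tested to 49481, the adjusted limma p of Gc was 0.0199. Gc was the only one of the 10 genes to pass under any of the alternatives tried. In that setting 6611 of all entries passed, against 9 with the filter. The difference of Gc was unchanged, and its unadjusted limma p was 0.00206 there and 0.00126 with the filter. The pass therefore adds no support for Gc.

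The proximal tubule captures the carrier through megalin and cubilin, endocytic receptors encoded by Lrp2 and Cubn, with Amn as the membrane anchor of cubilin, Dab2 as an adaptor and Lrpap1 as a chaperone. The differences of these 5 genes were -0.20, 0.09, 0.19, 0.01 and 0.07 on the log2 scale, and none passed the test. The whole group of 6 carrier and uptake genes had a median difference of 0.04, beside 0.01 over all entries. Gc thus stood alone in its group in the size of its difference.

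Rgn encodes regucalcin, a calcium-binding protein of liver and kidney that also acts as the gluconolactonase of ascorbate synthesis. Its level was 4.40, 4.45 and 3.63 in the corn oil animals and 3.42, 2.23 and 2.56 in the anthraquinone replicates. The groups did not overlap, though corn oil replicate 3 and anthraquinone replicate 1 lay close together. The means were 4.16 ± 0.46 and 2.74 ± 0.62 (SD, n = 3 per group), a difference of -1.42 ± 0.36 (SE), or 2.68-fold lower, with a 95% interval from -2.31 to -0.54 and a limma adjusted p of 0.197. In both Gc and Rgn the lowest corn oil level was that of replicate 3 and the lowest anthraquinone level that of replicate 2. Of the other enzymes of ascorbate synthesis on the list, Akr1a1, an aldehyde reductase gene, was at 6.64, 6.80 and 6.98 in corn oil and 7.29, 7.29 and 7.13 with anthraquinone, a difference of 0.42 ± 0.11 (SE, limma adjusted p = 0.197). Gulo, which encodes the last enzyme of ascorbate synthesis, and Ugdh, which encodes the enzyme that makes UDP-glucuronic acid, differed by 0.21 and -0.08.

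Gc and Rgn are abundant in liver, so hepatocyte markers were set beside them. Of 10 such markers 7 were tested, with 3 positive differences and a median of -0.04, and their summed level, as multiples of the array's 75th percentile, was 16.0 to 17.7 in corn oil and 15.8 to 22.5 with anthraquinone. Such a sum mostly follows its brightest probes, here F2 and Apoc3, and is not an amount of hepatocyte RNA. F2 was highest, at 3.51, in anthraquinone replicate 3. The probes of Ttr were well above background on none of the 6 arrays. No probe of Alb, the albumin gene, was above background on more than 1 array per group, and Serpina1 on 2 corn oil arrays and no anthraquinone array. Apoh, the apolipoprotein H gene, was the marker with the largest difference, with 0.38, 0.50 and -1.44 in corn oil and -2.01, -2.25 and -2.07 with anthraquinone (-1.92 ± 0.51, SE, limma adjusted p = 0.201). Its lowest corn oil level was also in replicate 3. Apoa1 came next, at -1.37 ± 1.08 (SE, limma adjusted p = 0.548), with overlapping groups. Its probe was well above background on all corn oil arrays and on 1 anthraquinone array. The part of hepatocyte RNA in the values of Gc and Rgn was not tested.

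Because Gc and Rgn were the pair with the largest negative differences, the 250 bases before their start sites are shown. They come from the RefSeq promoter table of rat assembly GRCr8, which holds 7 of the 10 genes and lacks Cyp24a1, Calb1 and S100g. Cyp27b1 is shown beside Gc and Rgn as the gene of the activating enzyme, and Trpv5 as the gene of the calcium channel. The sequences were searched on both strands, with up to 2 mismatches, for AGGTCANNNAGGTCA, the direct repeat bound by the vitamin D receptor with its partner RXR. Capitals would mark a match, and these windows held none.
Gc, chr14:18916005-18916254, plus strand: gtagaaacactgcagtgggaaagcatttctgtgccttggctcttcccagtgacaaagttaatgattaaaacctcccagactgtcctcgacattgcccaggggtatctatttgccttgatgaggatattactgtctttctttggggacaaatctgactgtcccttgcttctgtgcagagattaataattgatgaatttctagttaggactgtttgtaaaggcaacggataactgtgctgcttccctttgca
Rgn, chrX:4187958-4188207, minus strand: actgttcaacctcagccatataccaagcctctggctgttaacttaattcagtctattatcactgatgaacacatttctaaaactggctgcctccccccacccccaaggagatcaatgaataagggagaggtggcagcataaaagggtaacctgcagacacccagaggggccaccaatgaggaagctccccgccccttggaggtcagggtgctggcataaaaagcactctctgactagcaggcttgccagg
Cyp27b1, chr7:64756376-64756625, plus strand: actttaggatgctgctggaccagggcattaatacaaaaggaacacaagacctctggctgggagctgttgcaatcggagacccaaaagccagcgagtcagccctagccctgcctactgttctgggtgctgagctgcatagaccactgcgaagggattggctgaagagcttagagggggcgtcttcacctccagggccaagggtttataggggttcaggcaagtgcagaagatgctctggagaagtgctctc
Trpv5, chr4:71529383-71529632, minus strand: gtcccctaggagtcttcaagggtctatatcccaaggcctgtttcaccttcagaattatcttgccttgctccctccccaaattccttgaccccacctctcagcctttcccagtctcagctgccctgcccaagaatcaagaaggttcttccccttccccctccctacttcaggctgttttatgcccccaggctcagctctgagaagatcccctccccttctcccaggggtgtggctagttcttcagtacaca
The direct repeat was matched in 2.52% of the 33469 promoters of the table, and in none of the 7 windows of these genes. That says only that these letters are not in the windows. With so low a share, no match in 7 windows is the usual outcome. Cyp24a1 and S100g, both vitamin D targets, had no window to search.

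Cyp24a1 encodes the mitochondrial hydroxylase that degrades active vitamin D and is itself a classical target of the vitamin D receptor. Its level was 0.89, 1.41 and 1.57 in the corn oil animals and 2.01, 2.21 and 2.04 in the anthraquinone replicates. All anthraquinone animals were above all corn oil animals, and they spanned a narrower range than the corn oil animals. The means were 1.29 ± 0.36 and 2.09 ± 0.11 (SD, n = 3 per group), a difference of 0.80 ± 0.18 (SE), or 1.74-fold higher, with a 95% interval from 0.35 to 1.25 and a limma adjusted p of 0.191. A second Cyp24a1 probe gave -1.60, -0.90 and -0.66 in corn oil and -0.53, -0.34 and -0.39 with anthraquinone, again without overlap, and a difference of 0.63 ± 0.24 (SE). Corn oil replicate 1, which had a slide to itself, was the lowest on both probes. Among the 5 arrays that shared the other slide the difference of the brighter probe was 0.60, with the groups in different rows of that slide.

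Cyp27b1 encodes the hydroxylase that makes the active hormone. It was at -0.62, -0.42 and 0.25 in the corn oil animals and at -0.32, 1.70 and 0.58 in the anthraquinone replicates. Anthraquinone replicate 1 lay within the corn oil range and replicate 2 far above it, so the groups overlapped. The means were -0.26 ± 0.45 and 0.66 ± 1.01 (SD, n = 3 per group), a difference of 0.92 ± 0.52 (SE) with a 95% interval from -0.35 to 2.18 (limma adjusted p = 0.412). Leaving out anthraquinone replicate 2 gave 0.39, and leaving out replicate 1 of that group gave 1.41. Cyp27b1 was therefore the gene of the 10 with a difference near 1 on the log2 scale whose spread between animals was as wide as the difference itself. In anthraquinone replicate 2, Cyp24a1 and Cyp27b1 were at their highest and Gc and Rgn at their lowest of all 6 arrays.

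All 7 measured genes of the group for vitamin D hydroxylation and its electron supply had positive differences, with a median of 0.29. Over all entries 16866 of 32663 had positive differences. None of the group passed the test over all entries. Its largest difference was that of Dhcr7, which is neither a hydroxylase nor an electron carrier gene. Besides Cyp24a1, Dhcr7 had an unadjusted p under 0.05. It encodes the reductase that turns the vitamin D precursor 7-dehydrocholesterol into cholesterol and is a member of the cholesterol synthesis pathway. Dhcr7 was at 3.01, 2.98 and 2.53 in corn oil and 3.59, 3.86 and 4.36 with anthraquinone, a difference of 1.09 ± 0.23 (SE, limma adjusted p = 0.185). Cyp27a1, a sterol hydroxylase gene, Cyp2r1, the main vitamin D 25-hydroxylase gene, and the electron carrier genes Fdx1 and Fdxr differed by 0.29, 0.11, 0.02 and 0.09.

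Vdr encodes the vitamin D receptor. Its level was 0.39, 0.34 and 0.34 in corn oil and 0.14, 0.55 and 0.47 with anthraquinone, so the anthraquinone animals lay on both sides of the narrow corn oil range. The difference was 0.03 ± 0.12 (SE) with a 95% interval from -0.26 to 0.32 (limma adjusted p = 0.924), and a second probe gave -0.01 ± 0.16 (SE). Of the retinoid X receptor genes, whose products pair with the receptor, Rxra and Rxrb differed by 0.03 and 0.00 and Rxrg by 0.35 ± 0.21 (SE, limma adjusted p = 0.445). Cyp3a9 did not reach that level above background on any array, and the coregulator genes of the list had no matched probe.

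Kl encodes klotho, the co-receptor that lets FGF23 act on the tubule. Its level was 1.31, 1.33 and 1.51 in corn oil and 1.45, 1.34 and 1.08 with anthraquinone. The groups overlapped, and anthraquinone replicate 3 was the lowest of the 6 arrays on both Kl probes. The difference was -0.09 ± 0.12 (SE), with a 95% interval from -0.39 to 0.20 (limma adjusted p = 0.725), and the second probe gave -0.08 ± 0.11 (SE). The interval therefore spans losses and gains of up to 0.39 and 0.20 on the log2 scale, and a smaller shift was not resolved by 3 animals per group. Among the FGF receptor genes, Fgfr1, which encodes the usual partner of klotho in FGF23 signalling, was at 0.73, 0.72 and 0.82 in corn oil and 0.64, 0.35 and 0.26 with anthraquinone, a difference of -0.34 ± 0.12 (SE, limma adjusted p = 0.237). Its other probes gave -0.36 and -0.36. Fgfr2, Fgfr3 and Fgfr4 differed by -0.12, 0.16 and -0.10. Fgf23, the hormone gene, gave no signal well above background.

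Of the genes for calciotropic receptors and calcium sensing, Pth1r, the parathyroid hormone receptor gene, differed by -0.09 and Casr, the calcium-sensing receptor gene, by -0.06. Calcr, the calcitonin receptor gene, was at -1.39, -1.16 and -1.27 in corn oil and -1.66, -1.72 and -1.71 with anthraquinone. Those groups did not overlap, with a difference of -0.43 ± 0.08 (SE, limma adjusted p = 0.175). Of the 6 genes measured in this group 1 had a positive difference, and the median was -0.07.

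Trpv5 encodes the apical calcium channel of the late distal tubule. It was at -3.30, -2.82 and -2.49 in the corn oil animals and at -3.32, -3.65 and -3.76 in the anthraquinone replicates. Corn oil replicate 1 and anthraquinone replicate 1 differed by little, and the groups were otherwise apart. The means were -2.87 ± 0.41 and -3.58 ± 0.23 (SD, n = 3 per group), a difference of -0.71 ± 0.23 (SE), or 1.64-fold lower, with a 95% interval from -1.26 to -0.16 and a limma adjusted p of 0.225. A second, dimmer probe gave -4.53, -4.09 and -3.68 in corn oil and -5.01, -4.82 and -5.10 with anthraquinone, a difference of -0.88 ± 0.22 (SE) without overlap. That probe was well above background on every array. Its signal with anthraquinone was near that of the Trpv6 probe, given below, which was not. The 2 signals are set side by side only for their nearness to background, not as RNA levels. With the normexp background correction the difference of the brighter probe was -0.37. The close paralog Trpv6 was well above background on all 3 corn oil arrays and on 1 of the 3 anthraquinone arrays, at -4.89, -5.01 and -5.25 in corn oil and -5.78, -5.13 and -4.31 with anthraquinone. Its difference is therefore not set against that of Trpv5, and whether the probes tell these paralogs apart was not tested. Other genes tied to the channel, S100a10, Anxa2, Klk1, Tgm2 and Rab11a, which act in its trafficking or retention at the membrane, differed by 0.03, -0.07, 0.14, -0.33 and 0.08, and none passed the test.

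The 2 calbindin genes lay on opposite sides of 0. Calb1 encodes the large calbindin, which buffers and shuttles calcium across distal tubule cells. Its level was 1.90, 1.63 and 1.96 in the corn oil animals and 1.43, 1.37 and 0.83 in the anthraquinone replicates. The groups did not overlap, and anthraquinone replicate 3 was the lowest. The means were 1.83 ± 0.18 and 1.21 ± 0.33 (SD, n = 3 per group), a difference of -0.62 ± 0.19 (SE), or 1.54-fold lower, with a 95% interval from -1.07 to -0.17 and a limma adjusted p of 0.216.

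S100g encodes the small calbindin, a member of the S100 family that is a vitamin D target in gut and kidney. It was at 2.10, 2.07 and 2.21 in the corn oil animals and at 2.67, 3.07 and 3.73 in the anthraquinone replicates. The corn oil animals lay close together and all anthraquinone animals above them, with replicate 3 the highest. The means were 2.13 ± 0.07 and 3.16 ± 0.54 (SD, n = 3 per group), a difference of 1.03 ± 0.26 (SE), or 2.04-fold higher, with a 95% interval from 0.39 to 1.66 and a limma adjusted p of 0.196. In anthraquinone replicate 3, S100g was at its highest and Calb1 and Kl at their lowest of all 6 arrays. Other buffer genes of the list, Calb2, Calm2 and Calm3, differed by -0.16, -0.07 and 0.18, and Pvalb was not well above background on any array.

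Atp2b1 encodes a plasma membrane calcium pump that extrudes calcium across the basolateral membrane. Its level was 3.41, 3.22 and 2.99 in corn oil and 3.16, 3.24 and 3.02 with anthraquinone, with full overlap. The difference was -0.07 ± 0.13 (SE), with a 95% interval from -0.38 to 0.24 (limma adjusted p = 0.821). The other 3 probes gave -0.03, -0.11 and -0.13, all of them with overlapping groups. The sodium-calcium exchanger gene Slc8a1, the other basolateral exit route, differed by -0.15 ± 0.19 (SE, limma adjusted p = 0.723). The largest difference of the extrusion group was that of the pump gene Atp2b3, 0.26 ± 0.14 (SE, limma adjusted p = 0.410).

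**Figure D2:**
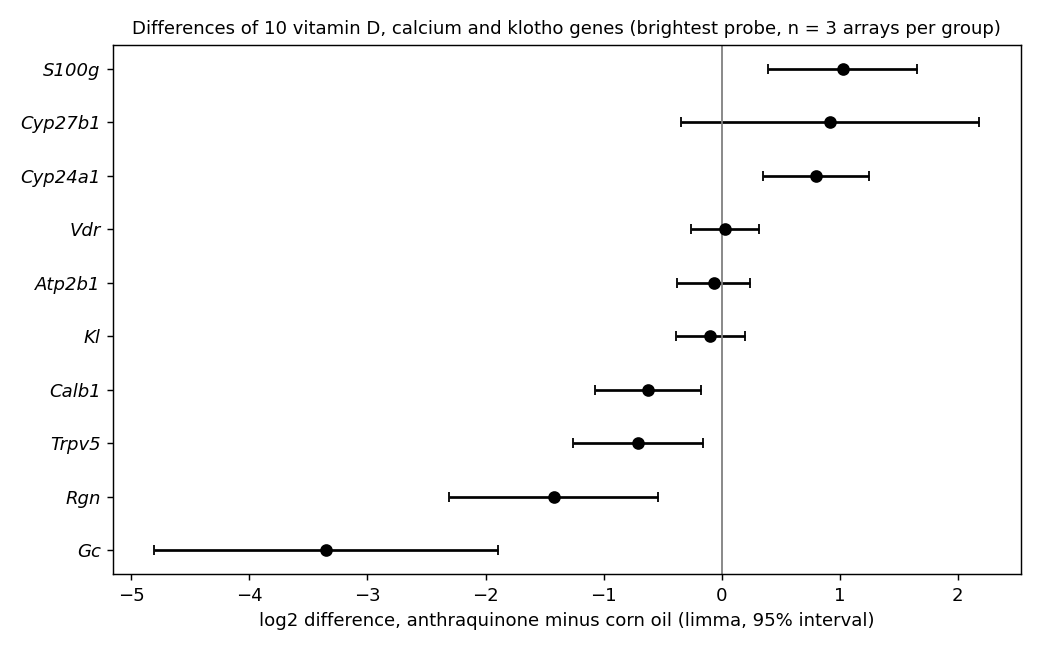
Log2 difference, anthraquinone minus corn oil, of the 10 genes (horizontal axis), with points for the limma estimate on the brightest probe and bars for its 95% interval, n = 3 arrays per group. The intervals of Gc, Rgn, Trpv5 and Calb1 lie below 0 and those of S100g and Cyp24a1 above it, without adjustment for the number of genes tested.

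**Figure D3:**
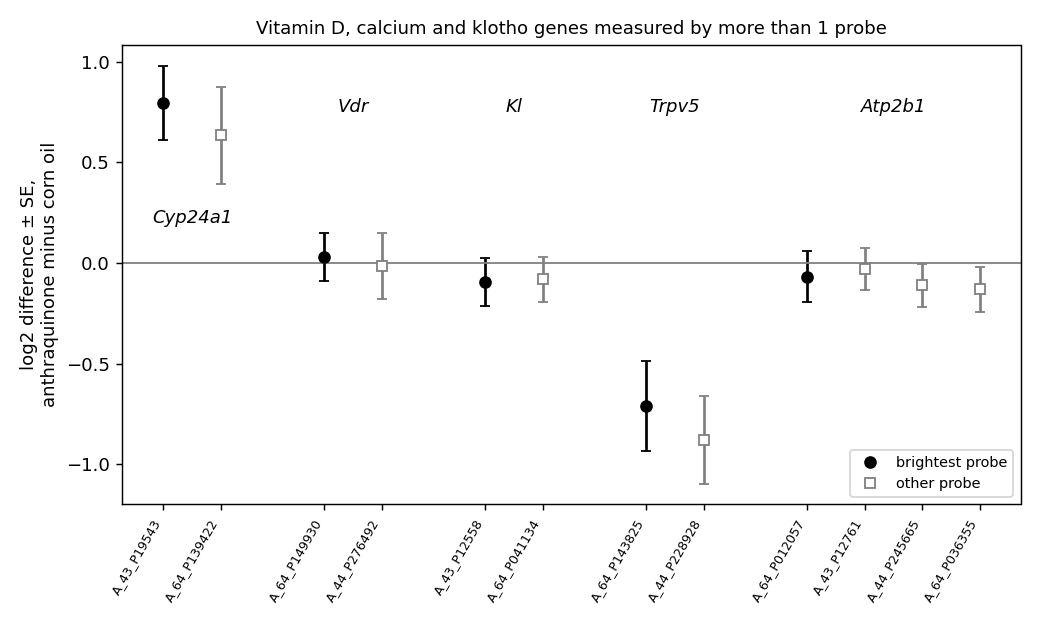
Log2 difference ± SE (vertical axis) of each probe of the 5 genes measured by more than 1 probe, with filled circles for the brightest probe and open squares for the others. Both Cyp24a1 probes lie above 0 (0.80 and 0.63), both Trpv5 probes below it (-0.71 and -0.88), and the probes of Vdr, Kl and Atp2b1 lie between -0.13 and 0.03.

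Trpv5 and Calb1 are genes of the distal convoluted and connecting tubule, so markers of these segments were set beside them. Not all genes of the distal calcium route were lower, since S100g differed by 1.03 and Atp2b1 by -0.07. Of 6 distal convoluted tubule markers 3 were tested and all 3 had negative differences, with a median of -0.09. Slc12a3 was at 4.32, 4.38 and 4.94 in corn oil and 4.19, 4.25 and 4.08 with anthraquinone, a difference of -0.38 ± 0.17 (SE, limma adjusted p = 0.331) without overlap, and Wnk4 and Cnnm2, genes of a kinase and of a magnesium transport protein, differed by -0.09 and -0.01. The summed level of the 3 was 22.9 to 33.6 times the 75th percentile in corn oil and 19.7 to 21.9 times with anthraquinone. Of 8 connecting tubule and principal cell markers 7 had negative differences, with a median of -0.43, and their summed level was 164.8 to 193.3 times in corn oil and 138.5 to 173.8 times with anthraquinone. These sums mostly follow their brightest probes, Slc12a3 and Aqp2, and are not amounts of a segment. Of the 8 markers the sodium channel subunit gene Scnn1b had the largest difference, -0.72 ± 0.09 (SE, limma adjusted p = 0.108). The marker with a positive difference was Aqp3, a basolateral water channel gene, at 0.46 ± 0.11 (SE, limma adjusted p = 0.191), with groups that did not overlap. The part of these segments in the values of Trpv5, Calb1, S100g and Atp2b1 was not tested. Proximal tubule markers, from the segment that holds megalin and cubilin, had a median difference of 0.07, with 10 of 12 positive.

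Claudins form the paracellular route for calcium and magnesium in the thick ascending limb and proximal tubule. Cldn14, which encodes a claudin that blocks this route, was at -3.12, -3.66 and -3.61 in corn oil and -4.18, -3.97 and -4.15 with anthraquinone. The groups did not overlap, with a difference of -0.64 ± 0.16 (SE, limma adjusted p = 0.196), and a second probe, above background on 5 of the 6 arrays, gave -0.44 ± 0.57 (SE). Cldn16 and Cldn19, which encode the pore-forming pair of the thick ascending limb, differed by -0.40 and -0.28, and Cldn2 and Cldn10 by 0.05 and 0.01, none past the test.

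Among 7 distal magnesium genes tested, Kcnj10, the gene of a basolateral potassium channel, was above background on all corn oil arrays and on no anthraquinone array. It entered the test through the corn oil group alone, so the filter favoured a lower level with anthraquinone. Its other probe was above background on no array. The corn oil mean of the tested probe was at least 1.12-fold higher than the anthraquinone level. For this bound each dim array had a floor at the dimmest probe still called well above background there. The probe's own signal was used if that was brighter. The measured means were -5.19 in corn oil and -6.48 with anthraquinone (limma adjusted p = 0.220). Slc41a3, a magnesium transporter gene, differed by 0.52 ± 0.20 (SE, limma adjusted p = 0.277), with overlapping groups. Trpm6, the apical magnesium channel gene, had no matched probe and was not analysed here. The 15 genes of intracellular calcium stores had a median difference of 0.01. None had an unadjusted p under 0.05, where 17.1% of all entries did, and 2 had groups that did not overlap, where 25.2% of all entries did. These were Letm1, a mitochondrial inner membrane gene with the largest difference, 0.51 ± 0.29 (SE, limma adjusted p = 0.405), and Slc8b1, the mitochondrial sodium-calcium exchanger gene, named after its value was seen, at 0.13 ± 0.07 (SE, limma adjusted p = 0.408).

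Over the whole list of 92 vitamin D, calcium and magnesium genes, 79 were tested, 8 had no matched probe and 5 were below background on at least 1 array of each group. None of the 79 passed the limma test over all entries. At an unadjusted p under 0.05, 5 were higher and 9 lower, 14 of the 79 in all, close to the 17.1% of all entries. The median difference was 0.00, beside 0.01 over all 32663 entries. The count of listed genes was 22 without anthraquinone replicate 1, where 6005 of all entries were under 0.05. It was between 11 and 19 with any other array left out, where 4051 to 4632 of all entries were. Without the 10 genes described above, 8 of 69 had an unadjusted p under 0.05, 3 higher and 5 lower, against 17.1% of all entries. Kcnj10, tested through the corn oil group alone, is among the lower genes of both counts. The median size of the difference, without its sign, was 0.13 over those 69 genes, 0.14 over all entries and 0.75 over the 10 genes.

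**Figure D4:**
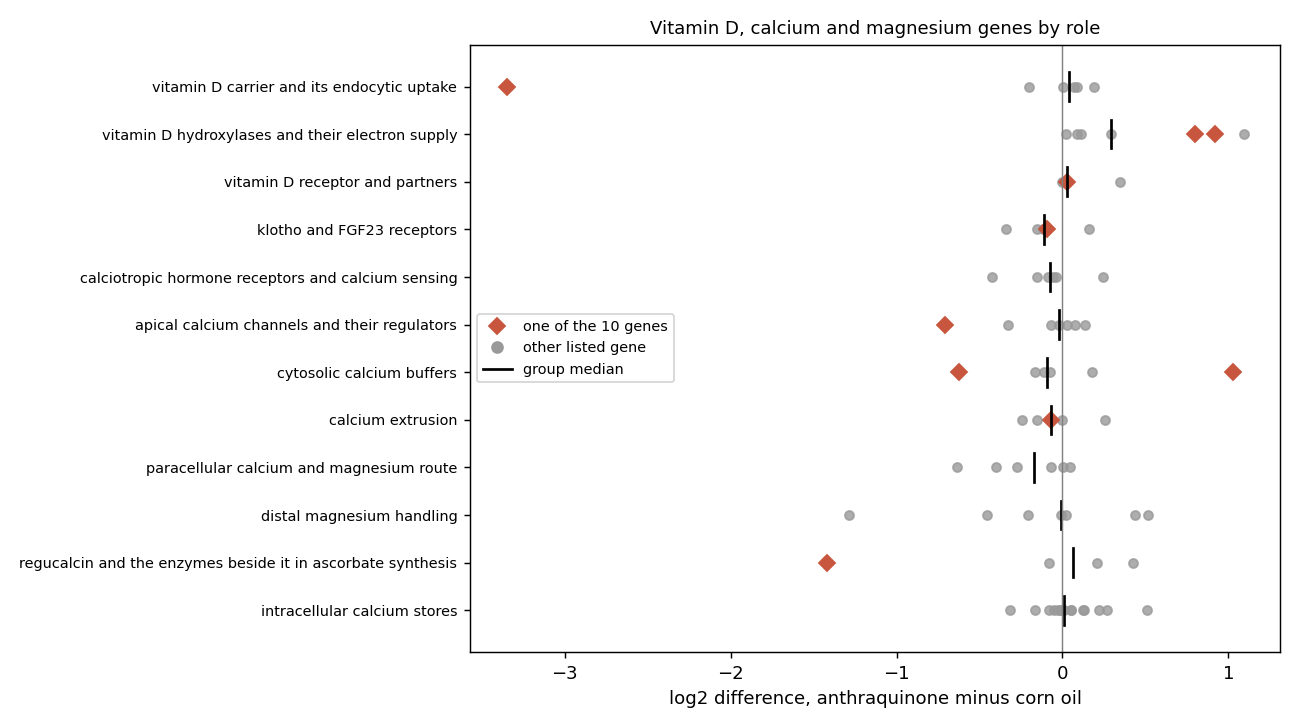
Log2 difference, anthraquinone minus corn oil (horizontal axis), of the 79 tested genes of the vitamin D, calcium and magnesium list, 1 row per role, with diamonds for the 10 genes described, circles for the other listed genes and a line at each group's median. Medians lie between -0.17 and 0.29, while Gc at -3.35 and Rgn at -1.42 lie far to the left of the other genes of their rows.

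For each of the 6 genes with an unadjusted p under 0.05, the 3 named genes with the most similar profile were taken from 11239 genes well above background on all arrays, by Pearson correlation over the 6 arrays. These are descriptions over 6 arrays that fall into 2 groups, with no test. Gc was most like Spata6l, Akr1c13 and the sugar transporter gene Slc5a10 (r = 0.990, 0.990 and 0.987), whose own differences were -0.50, -0.88 and -1.70. Rgn was most like Mfsd9, the histamine methyltransferase gene Hnmt and Glod4 (r = 0.999, 0.995 and 0.995), with differences of -0.21, -2.03 and -0.16. Cyp24a1 was most like the gluconeogenic enzyme gene Fbp1, C7h8orf82 and Ntmt1 (r = 0.991, 0.990 and 0.988). Calb1 was most like the urokinase gene Plau, Afg1l and C10h16orf90 (r = 0.993, 0.993 and 0.992). S100g was most like Avpi1, Tm2d3 and Utp3 (r = 0.995, 0.994 and 0.992), and Trpv5 was most like Ccnjl, the sodium channel subunit gene Scnn1g and Nes (r = 0.995, 0.994 and 0.993).

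**Figure D5:**
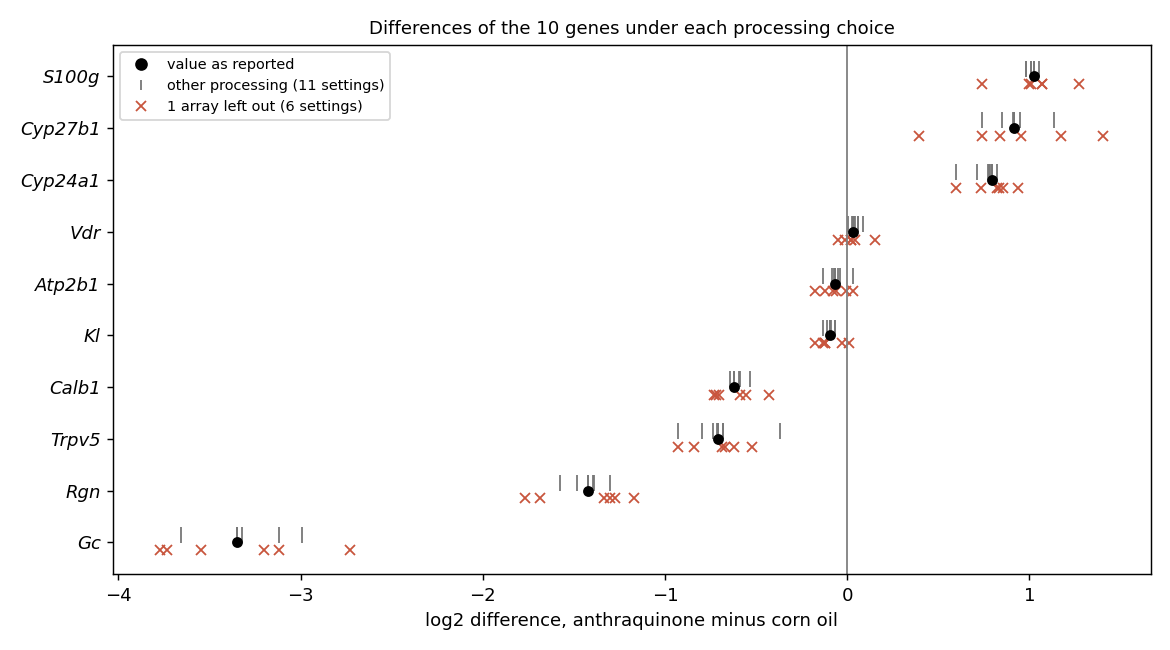
Log2 difference (horizontal axis) of each of the 10 genes as reported (black points), under 11 other processing settings (grey ticks) and with 1 array left out in turn (red crosses). Gc, Rgn, Trpv5 and Calb1 stay below 0 and Cyp24a1, Cyp27b1 and S100g above 0 in all 17 settings, and Vdr, Kl and Atp2b1 lie on both sides of 0. Where the groups did not overlap, leaving out 1 array could not reverse the direction, and several processing settings leave the estimate unchanged by design.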

How the data were processed

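The scanner files hold linear spot intensity from Agilent Feature Extraction, version 10.7.1.1 in the file headers and 10.7 in the submitters' processing notes. Per the file headers, the processed intensity is background-subtracted and detrended, with no scaling between arrays. The deposited value table is the same intensity over each array's 75th percentile, linear and not centred: 90.7 to 97.0% of probes lay within 0.01 log2 of 1 constant, with column medians of 0.109, 0.113, 0.114, 0.109, 0.111 and 0.110, and its scale is not stated. Log2 intensity minus the 75th percentile of 61657 non-control probes was used here, without 2 to 13 outlier spots per array. The 41310 probes well above background throughout a group were tested. The RefSeq table of GRCr8 named 27460 probes by accession, and the array uses another build, so no probe coordinates are given. The brightest probe stood for a gene (32663 entries, 11831 with a symbol). Groups came from the sample titles and were tested in limma 3.58.1 under R 4.3.3 (lmFit, eBayes) with Benjamini-Hochberg adjustment over all entries, or over all probes for single probes. Precision is limited by having 3 arrays per group. The fit was also run on simulated data with independent normal noise and planted differences. Such data hold no slide, row or pairing effects, so that run is no check of those.

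The 10 genes and the lists were chosen with earlier results of these data known. From each role of the list, up to 4 genes with an unadjusted p under 0.05 were named, or otherwise the gene with the largest difference. Other genes named for their role, and the promoter motif, were chosen after values were seen. A few listed genes are not reported here. Same-numbered animals did not deviate together over all entries (correlations of 0.03, -0.06 and -0.01), so the replicate numbers were not used as pairs. These correlations cannot exclude a pairing that touches few genes. Alternatives were other scalings, background corrections, filters, probe choices, variance models, blocks and thresholds, the deposited table, and each array left out.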

Additional observations from a re-analysis of the deposited data

How the results depend on the processing

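Of the 10 genes, none passed the limma test in any of 17 alternative settings except Gc with no filter on dim probes. Gc, Rgn, Calb1, Trpv5, Cyp24a1, Cyp27b1 and S100g kept their direction in all 17. Much of this was fixed in advance. Of these genes all but Cyp27b1 had groups that did not overlap, so leaving out 1 array could not reverse them. The other filters, the variance model and the replicate block leave each estimate as it was, and the deposited table holds the same intensities. Those settings are therefore no check of direction. With 1 array left out, Vdr ranged from -0.051 to 0.153 and was below 0 without anthraquinone replicate 2 (-0.051) or 3 (-0.012). Kl ranged from -0.175 to 0.011 and was above 0 only without anthraquinone replicate 3. Atp2b1 ranged from -0.176 to 0.034, the highest without corn oil replicate 1, and blocking on the slide amounts to the same fit and also gave 0.034. The count of entries past the test was 9, and it was 16 with the normexp correction (run on median spot signals, since the columns read here hold no means), 81 with eBayes using a trend and robust fit, 2 with the slide as a block, 54 at a threshold of 0.10, and 1 to 25 with 1 array left out. With no filter on dim probes it was 6611 of 49481 entries, 1 of the 10 genes (Gc) and 4 genes of the whole list passed, and the cause was not tested. With the replicate number as a block, which the data do not show to pair the animals, 1 entry passed and none of the 10 genes did. Median, quantile and normexp scaling moved the median of all entries to 0.04, 0.00 and 0.05. The 10 genes were well above background on all arrays. Probe sequences were not examined, and cross-hybridisation was not tested.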
